A study of Mus musculus with 4 samples.

Results

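The genes described here encode splicing factors and other RNA-binding proteins, measured in mouse liver with and without the SV40 T antigens. Members were chosen by gene symbol, as probe sets (groups of probes that read 1 transcript) whose single gene symbol in the platform annotation begins with Srsf, Hnrnp, Snrp, Sf3 or Rbm. This gave 78 probe sets of 57 genes, out of 12488 probe sets on the array and 8251 genes named by a single symbol, of which 16 were Srsf, 22 Hnrnp, 10 Snrp, 10 Sf3 and 20 Rbm probe sets. A further 10 probe sets that carry such a symbol among several were left out. Total liver RNA came from male B6SJL hybrid mice aged 58 to 60 days that had been given, for 4 weeks after weaning, free access to a diet with 10% protein and 70% carbohydrate. There were 2 arrays (Affymetrix MG_U74Av2) from non-transgenic wild-type mice and 2 from PEPCK-TAg mice. In PEPCK-TAg mice the promoter of the gene for phosphoenolpyruvate carboxykinase, which is active in hepatocytes, drives the large T and small t antigens of SV40. Whether a group's arrays are from different animals is not stated in the labels, so p-values measure only how far these arrays differ, which may be technical.

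In the nucleus, introns are removed from transcripts by the spliceosome, which is built from small nuclear ribonucleoproteins (snRNPs), each a short RNA held by a ring of Sm proteins and by proteins of its own. The U1 snRNP recognises the start of an intron, and the U2 snRNP, with its SF3A and SF3B complexes, the branch point near the end. SR proteins (Srsf genes) bind exons and recruit these particles, whereas hnRNP proteins (Hnrnp genes) coat nascent transcripts and often repress nearby splice sites. Rbm genes share only an RNA-binding motif, and their products range from spliceosome subunits to regulators of messenger stability. Large T binds the retinoblastoma proteins and p53, small t binds the phosphatase PP2A, and hepatocytes of adult liver otherwise seldom divide.

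Signals were MAS5 values in arbitrary units, with the same trimmed mean of 250.2 on each array. Levels are compared here only within a probe set or, for marker lists, as a sum over the same probe sets. In such a sum the brightest probe sets weigh most. As a sign of RNA quality, control probe sets at the 3′ end of Gapdh read 3.67 and 3.80 times those at its 5′ end in wild type against 3.36 and 2.95 times in PEPCK-TAg. The same measure of actin overlapped between groups, and the part of RNA quality in the results was not tested. Hepatocyte markers were bright on every array, with Alb, the albumin gene, between 12446 and 16723. Of the 8 measured 1 fell (Apoa2) and none rose, and all 8 changes were below 0, with a median of -0.38 and groups apart in 6. Their summed signal was 79896 and 69065 in wild type against 61241 and 54951 in PEPCK-TAg. As a background for these marker counts, 6.40% of all tested probe sets rose and 3.07% fell. Groups were apart, without overlap, with PEPCK-TAg higher in 30.2% and lower in 26.3%. Across all probe sets, log2 signals correlated with r = 0.97 and 0.98 within the groups and with r = 0.94 to 0.95 between them, where probe sets are not independent replicates. Markers of dividing cells moved with the transgene, as 10 of 10 measured genes, of 12 on the array, rose by limma with Benjamini-Hochberg adjustment. Their summed signal was 751 and 886 in wild type against 5856 and 7168 in PEPCK-TAg. The filter on dim probe sets used the mean over both groups, so some genes dim in wild type passed only through PEPCK-TAg. Among these were Mki67 (5.8 and 8.7 in wild type) and Top2a (6.1 and 5.4), so this count and sum are tilted toward rises. Of 13 measured macrophage markers 6 rose, with summed signals of 4266 and 7743 in wild type and of 13910 and 18569 in PEPCK-TAg. Endothelial markers summed to 2996 and 3122 in wild type and to 1898 and 2732 in PEPCK-TAg with 0 of 8 called, and stellate markers to 3153 and 3362 and to 3016 and 4407 with 1 of 5 (Col3a1) higher. Of the measured red blood cell (3), B and plasma cell (4) and T and natural killer cell (1) markers 0 were called, and the 4 bile duct markers on the array were all below the filter on dim probe sets. The part of other cell types in the results below was not tested, and in whole liver RNA a change in the share of cells and a change in RNA per cell cannot be told apart.

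Few splicing-factor probe sets changed past the threshold, but most lay slightly higher in PEPCK-TAg liver. Of the 78 probe sets 68, from 55 genes, passed a filter on dim signals, and the tests below are of these. In PEPCK-TAg 5 of the 68 rose and 0 fell (limma on log2(signal + 13), Benjamini-Hochberg adjusted p under 0.05 over 7453 probe sets), namely both probe sets of Srsf3 and 1 each of Snrpe, Sf3a3 and Srsf6. These are 7.35% of the measured members, near the background of 6.40% of all tested probe sets that rose, and 3.07% fell, so that 9.47% of all tested probe sets were called in either direction. At an unadjusted p under 0.05, 25 members were higher and 2 lower, or 36.8% and 2.94% beside 15.5% and 11.0% of all tested. The fitted change was above 0 for 63 of 68, beside 50.5% of all tested probe sets, with a median of 0.39 beside 0.01 for all tested, on the log2 scale. With arrays centred on their medians 49 of 68 were above 0, but the median of all tested was then -0.14. The difference between the member median and that of all tested was 0.38 either way. For 40 of 68 members each PEPCK-TAg array was above each wild-type array, or 58.8% beside a background of 30.2%, and for 3 each was below, or 4.41% beside 26.3%. Groups were thus apart in either direction for 43 of 68, where 56.5% of all tested probe sets had groups apart. The filter used the mean over both groups, so some members dim in wild type passed only through PEPCK-TAg, which tilts these counts toward rises. Such members were Srsf1 160539_at (44.9 and 45.7 in wild type), Rbmx 97848_at (44.8 and 48.3) and Snrpd3 (58 and 32.3). Snrpb2 passed so with 92839_f_at (29.7 and 50.3), whereas its 162026_r_at (48.8 and 44.8 in PEPCK-TAg) passed only through wild type. Over all 78 members, without the filter, 69 changes were above 0, with a median of 0.36.

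**Figure D1:**
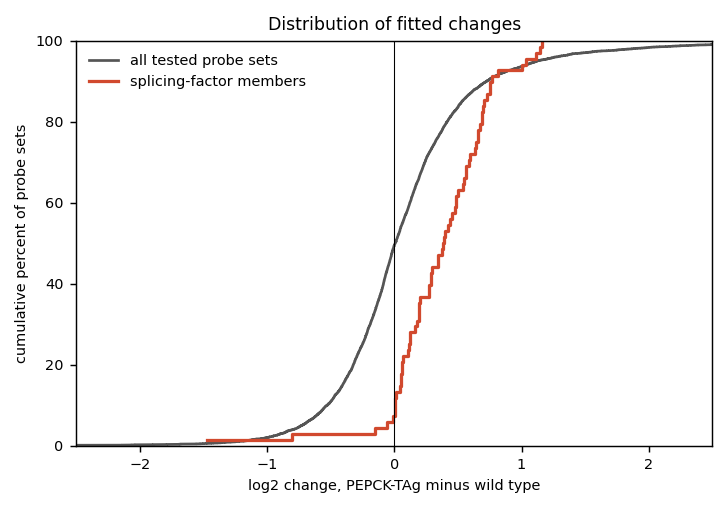
Cumulative percent of probe sets (vertical axis) against the fitted log2 change, PEPCK-TAg minus wild type (horizontal axis), for all 7453 tested probe sets (grey) and the 68 measured splicing-factor members (red). The member curve lies to the right of the grey curve through its middle, with medians of 0.39 and 0.01, and runs from -1.47 to 1.16. The axis leaves out the most extreme of all tested probe sets.

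The number of members above 0 depended on the scaling of the arrays. With each array centred on its own median, the median of all probe sets was -0.14 and that of the members 0.24, a shift that moves every probe set alike, and 49 of 68 changes were then above 0. Counts above 0 with median centring, here and below, are thus not comparable with the 50.5% found with the deposited scaling. With quantile normalization the medians were -0.06 and 0.31 with 53 changes above 0, and with cyclic loess -0.01 and 0.37 with 57. With median centring 2 members were called, 1 probe set each of Snrpe and Srsf3, and over all probe sets 403 were higher and 409 lower, against 477 and 229 with the deposited scaling. Leaving out each array in turn gave member medians of 0.30 to 0.50. Wild-type replicate 1, PEPCK-TAg replicate 1 and PEPCK-TAg replicate 2 each changed the count of higher members by more than 1.5 times when left out, to 2, 2 and 3.

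The promoters of the 4 genes with a probe set that rose are shown so that they can be compared, as 250 bases before the annotated transcription start (RefSeq, GRCm38.p6), written 5′ to 3′ on the strand of the gene. Capitals mark CCAAT, the box bound by NF-Y, on either strand. The regions are chr17:29032410-29032659 on the plus strand for Srsf3, chr2:162931258-162931507 on the plus strand for Srsf6, chr1:133610281-133610530 on the minus strand for Snrpe and chr4:124714611-124714860 on the plus strand for Sf3a3.
Srsf3: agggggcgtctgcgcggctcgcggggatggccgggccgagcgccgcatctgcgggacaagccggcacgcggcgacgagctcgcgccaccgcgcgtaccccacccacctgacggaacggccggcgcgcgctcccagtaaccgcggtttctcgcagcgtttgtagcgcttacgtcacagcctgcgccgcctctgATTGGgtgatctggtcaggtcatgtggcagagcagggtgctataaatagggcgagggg
Srsf6: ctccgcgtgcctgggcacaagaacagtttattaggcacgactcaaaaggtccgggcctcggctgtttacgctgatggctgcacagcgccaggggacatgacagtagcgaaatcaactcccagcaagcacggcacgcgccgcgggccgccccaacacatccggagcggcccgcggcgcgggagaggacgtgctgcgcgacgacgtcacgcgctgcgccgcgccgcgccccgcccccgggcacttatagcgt
Snrpe: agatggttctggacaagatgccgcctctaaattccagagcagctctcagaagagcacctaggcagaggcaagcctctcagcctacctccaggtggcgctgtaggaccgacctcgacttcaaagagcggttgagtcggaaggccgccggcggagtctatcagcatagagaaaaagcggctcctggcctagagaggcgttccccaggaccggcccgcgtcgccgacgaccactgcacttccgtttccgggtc
Sf3a3: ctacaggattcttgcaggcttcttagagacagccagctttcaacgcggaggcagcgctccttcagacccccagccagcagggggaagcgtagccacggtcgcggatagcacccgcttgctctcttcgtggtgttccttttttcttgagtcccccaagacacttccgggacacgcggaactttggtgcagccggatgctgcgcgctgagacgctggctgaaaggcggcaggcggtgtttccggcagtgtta
The Srsf3 region holds 1 CCAAT box, on the opposite strand, and the other three hold no match to any motif searched. The motifs searched on both strands were CCAAT, the E-box CACGTG, and 3 E2F-type sites, TTTCCCGC, TTTGGCGC and TTTCGCGC, none of which is contained in another. Over the 50 member genes with a promoter in the RefSeq table, out of 57, CCAAT was present in 26, or 52.0%, beside 37.5% of all 27025 genes in the table. CACGTG was present in 1 (Hnrnpd), or 2.0% beside 6.86%, and any E2F-type site in 3 (Srsf1, Srsf10 and Hnrnpr), or 6.0% beside 1.78%. A gene was counted when any of its listed starts held the motif, so these shares describe letters in a window and not binding.

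SR protein genes held 3 of the 5 calls, 2 of them of the gene Srsf3. Of 13 measured Srsf probe sets 3 rose, or 23.1% beside a background of 6.40%, and 10 did not pass. All 13 changes were above 0, the smallest 0.01, and 11 were with median centring. The groups were apart with PEPCK-TAg higher in 10, or 76.9% beside 30.2% of all tested, and the median was 0.40. Srsf3 encodes the smallest SR protein, which acts in exon definition and messenger export. Its probe set 101004_f_at measured 269 and 310.5 in wild type against 689 and 639 in PEPCK-TAg, a log2 change of 1.16 ± 0.17 (SE; limma, Benjamini-Hochberg adjusted p = 0.0102). The second, 101003_at, measured 51.4 and 54.4 in wild type against 116.5 and 128 in PEPCK-TAg, a change of 1.04 ± 0.22 (limma, Benjamini-Hochberg adjusted p = 0.0353). So 2 probe sets, 1 of them (suffix _f) open to sequence shared with related transcripts, gave similar changes, with groups far apart in each. Whether their probes read separate parts of the transcript was not tested. The call of 101004_f_at held without any 1 array (limma, Benjamini-Hochberg adjusted p 0.0198 to 0.0381), and that of 101003_at was lost without each of the 4 (0.0642 to 0.176).

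Srsf6, an SR protein gene whose product regulates alternative exons, measured 580 and 589 in wild type against 987 and 876 in PEPCK-TAg. Its change was 0.66 ± 0.16 (SE; limma, Benjamini-Hochberg adjusted p = 0.0475), and the call was lost without each of the 4 arrays (0.0987 to 0.209). Srsf2, known for its part in exon recognition and in transcription elongation, stood close to the threshold with both of its probe sets. Probe set 95791_s_at measured 568 and 618 in wild type against 1061 and 878 in PEPCK-TAg, and 94017_s_at 2624 and 2469 in wild type against 4132 and 3452 in PEPCK-TAg. Their changes were 0.69 ± 0.17 and 0.57 ± 0.15 (limma, Benjamini-Hochberg adjusted p = 0.0530 and 0.0652), with the groups apart in each.

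Srsf1, the founding SR protein, has 4 probe sets, of which 2 were measured, with groups apart in both. Probe set 104586_at measured 156 and 174.5 in wild type against 235.5 and 209 in PEPCK-TAg, a change of 0.40 ± 0.18 (limma, Benjamini-Hochberg adjusted p = 0.211). Probe set 160539_at measured 44.9 and 45.7 in wild type against 68.1 and 57.1 in PEPCK-TAg, a change of 0.37 ± 0.27 (limma, Benjamini-Hochberg adjusted p = 0.443). The 2 that did not pass the filter were 160141_r_at, with 25 and 30.2 in wild type against 57.4 and 49.2 in PEPCK-TAg, and 101022_at, at or under 23.4 on every array. Srsf10, whose product represses splicing when dephosphorylated, measured 82.1 and 65.3 in wild type against 122.7 and 121.1 in PEPCK-TAg with probe set 102046_at, which did not pass (0.64 ± 0.22), and its other probe set was below the filter. Srsf11 (0.34), Srsf5 (0.29), Srsf4 (0.20 and 0.01) and Srsf9 (0.05) had smaller log2 changes, and the groups overlapped for Srsf5, Srsf9 and 1 of the Srsf4 probe sets.

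**Figure D2:**
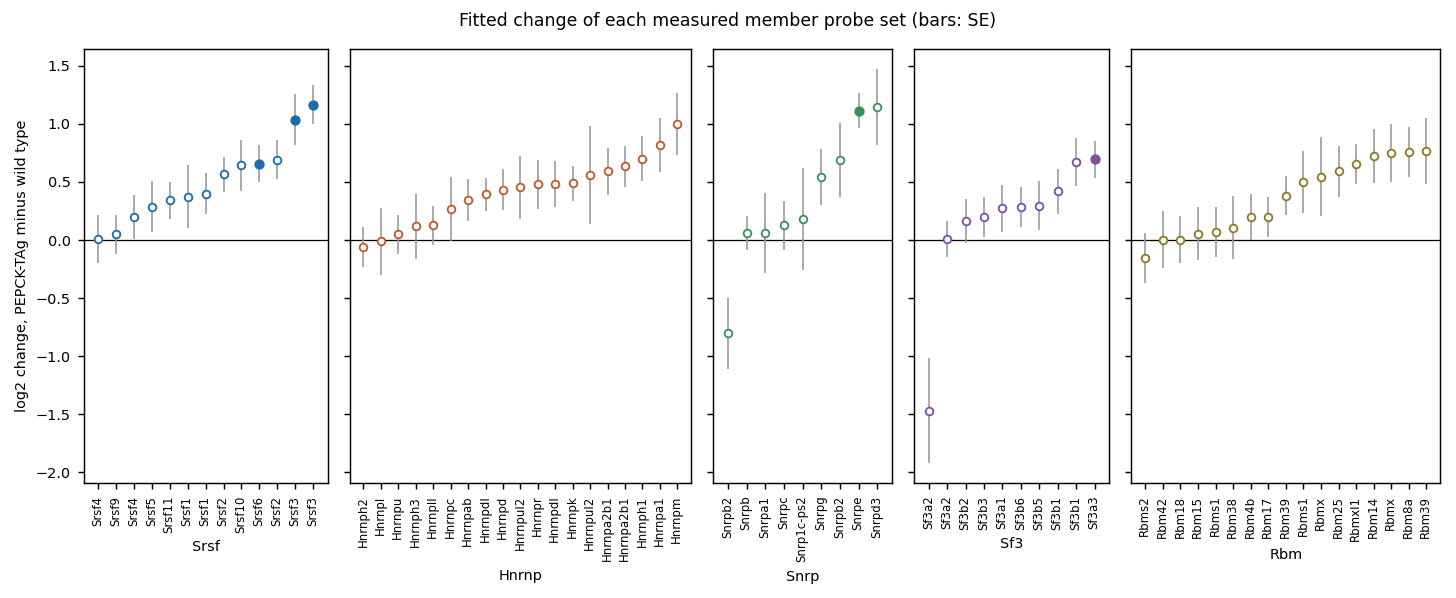
Fitted log2 change, PEPCK-TAg minus wild type (vertical axis), of each of the 68 measured member probe sets, in 5 panels by symbol prefix and ordered by change, with SE as bars and filled points for adjusted p under 0.05. The 5 filled points are Srsf6 and both Srsf3 probe sets, Snrpe and Sf3a3, and 63 of 68 points lie above 0 (49 with median centring).

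In the hnRNP genes no probe set passed, although most lay higher in PEPCK-TAg. Of 19 measured Hnrnp probe sets 0 rose and 0 fell by limma with Benjamini-Hochberg adjustment. At an unadjusted p under 0.05, 9 were higher and 0 lower, or 47.4% and 0% beside a background of 15.5% and 11.0%. A total of 17 changes were above 0 (14 with median centring), with a median of 0.46. The groups were apart with PEPCK-TAg higher in 12 and lower in 0, or 63.2% and 0% beside 30.2% and 26.3% of all tested. Hnrnpm, an hnRNP that binds GU-rich sequence, measured 600 and 403 in wild type against 1218 and 815 in PEPCK-TAg. In each group replicate 1 lay well above replicate 2, and the change was 1.0 ± 0.27 (SE; limma, Benjamini-Hochberg adjusted p = 0.0662). It was called without PEPCK-TAg replicate 2 (change 1.29, limma Benjamini-Hochberg adjusted p = 0.0268), and in no other fit that left out an array.

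Hnrnph1, which binds G-rich sequence, measured 1072 and 817 in wild type against 1669 and 1403 in PEPCK-TAg (log2 change 0.70 ± 0.19; limma, Benjamini-Hochberg adjusted p = 0.0695). Its paralogues did not share that size, with changes of -0.06 for Hnrnph2 and 0.12 for Hnrnph3 and overlapping groups. Hnrnpa1, a repressor of splice sites that opposes SR proteins, measured 66.2 and 61.6 in wild type against 140 and 107 in PEPCK-TAg (log2 change 0.81 ± 0.23; limma, Benjamini-Hochberg adjusted p = 0.0796). For Hnrnpa2b1, a relative of Hnrnpa1, probe set 93118_at measured 307 and 250.4 in wild type against 451 and 426 in PEPCK-TAg. Its other probe set, 93117_at, measured 1769 and 2073 in wild type against 3454 and 2424 in PEPCK-TAg, so that the change was similar with both (0.64 ± 0.18 and 0.59 ± 0.20; limma, Benjamini-Hochberg adjusted p = 0.0740 and 0.126). Groups were apart for Hnrnpa1 and for both Hnrnpa2b1 probe sets.

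The rest of the family fell into a larger set of small positive differences and a few near 0. Hnrnpk, a binder of C-rich sequence, measured 801 and 786 in wild type against 1177 and 1061 in PEPCK-TAg (log2 change 0.49 ± 0.15; limma, Benjamini-Hochberg adjusted p = 0.0988). Hnrnpd (0.44), both measured Hnrnpdl probe sets (0.49 and 0.39), Hnrnpr (0.48) and Hnrnpab (0.35) also had groups apart. Hnrnpc, which coats nascent transcripts, measured 148 and 127 in wild type against 221 and 127 in PEPCK-TAg, so that only PEPCK-TAg replicate 1 stood above both wild-type arrays. Hnrnpu (0.05), Hnrnpll (0.13) and Hnrnpl (-0.01) had overlapping groups. The probe sets of Hnrnpul2 gave 0.46, with groups apart, and 0.56, where wild-type replicate 1 at 39.4 stood far under the other arrays (99.9 to 117). The 3 Hnrnp probe sets below the filter, of Hnrnpab, Hnrnpdl and Hnrnpu, had no signal above 27.1.

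Among the snRNP proteins, Snrpe stood out from a mixed group. Of 9 measured Snrp probe sets 1 rose, or 11.1% beside a background of 6.40%, and 8 did not pass. A total of 8 changes were above 0 (5 with median centring). The median of 0.18 ranged from 0.07 (without wild-type replicate 2) to 0.52 (without PEPCK-TAg replicate 2). Snrpe encodes the E protein of the Sm ring that is common to most spliceosomal snRNPs. It measured 436 and 437 in wild type against 984 and 937 in PEPCK-TAg, a change of 1.11 ± 0.15 (SE; limma, Benjamini-Hochberg adjusted p = 0.00842), the smallest p of any member. The arrays within a group differed little beside the gap between groups, and the call held without any 1 array (limma, Benjamini-Hochberg adjusted p 0.0196 to 0.0310). Its probe set, 97200_f_at, is of the kind that can share sequence with related transcripts.

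The other measured Sm ring genes did not pass. Snrpd3 measured 58.0 and 32.3 in wild type against 137.5 and 91.6 in PEPCK-TAg, a change as large as that of Snrpe with a wider error (1.15 ± 0.33; limma, Benjamini-Hochberg adjusted p = 0.0788). Snrpg measured 109 and 175 in wild type against 204 and 211 in PEPCK-TAg, with the groups apart (0.54 ± 0.24; limma, Benjamini-Hochberg adjusted p = 0.214). Snrpb, the remaining Sm gene measured, had 3166 and 2832 in wild type against 2941 and 3308 in PEPCK-TAg, so the groups overlapped. Its measured probe set, 160555_r_at, has a suffix that marks probes picked under relaxed design rules. Proteins specific to 1 particle showed no common direction. Snrpc of U1 (0.13) and Snrpa1 of U2 (0.06) had overlapping groups, as had the annotated pseudogene Snrp1c-ps2 (0.18), whose PEPCK-TAg arrays lay far apart, at 215 and 72.2.

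Snrpb2, a protein of the U2 particle, gave opposite signs with its probe sets. Probe set 162026_r_at measured 119 and 69.0 in wild type against 48.8 and 44.8 in PEPCK-TAg (log2 change -0.80 ± 0.31; limma, Benjamini-Hochberg adjusted p = 0.159). Probe set 92839_f_at measured 29.7 and 50.3 in wild type against 78.3 and 63.9 in PEPCK-TAg (log2 change 0.69 ± 0.32; limma, Benjamini-Hochberg adjusted p = 0.223). Groups were apart in both, in opposite directions, and neither passed.

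**Figure D3:**
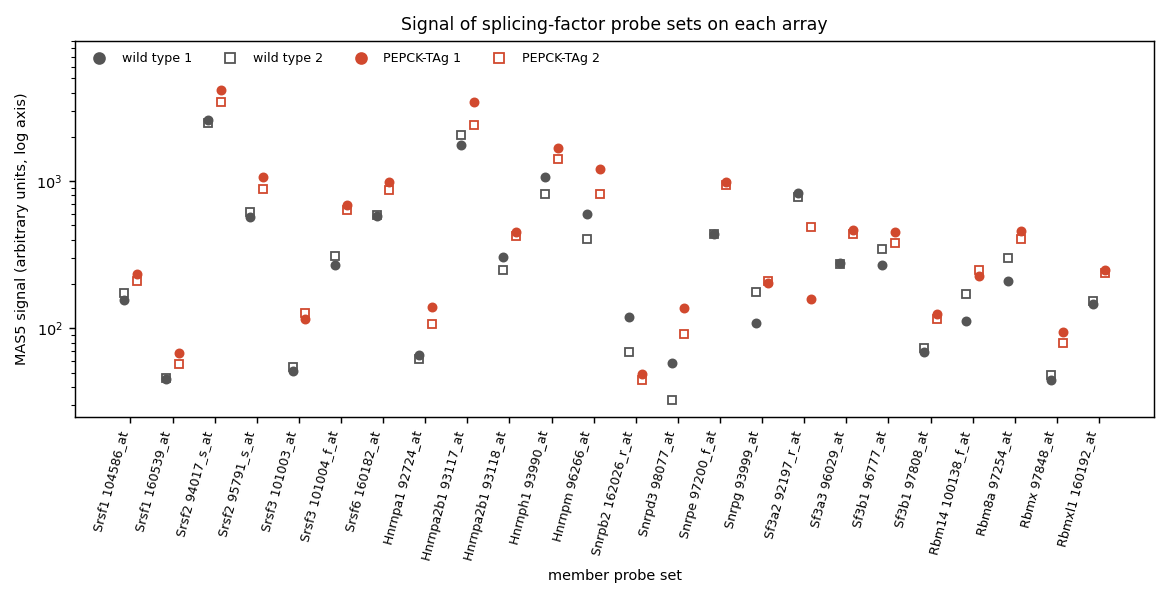
MAS5 signal (vertical log axis, arbitrary units) on each of the 4 arrays for 24 member probe sets, with wild type in grey, PEPCK-TAg in red, filled circles for replicate 1 and open squares for replicate 2. For Snrpe and both Srsf3 probe sets the groups lie far apart, and the lower probe sets of Snrpb2 and Sf3a2 run the other way.

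Of the 10 Sf3 probe sets, all measured, 1 rose, or 10% beside a background of 6.40%, and 9 did not pass. There were 9 changes above 0 (8 with median centring). The median was 0.28 (0.19 without wild-type replicate 1 to 0.45 without wild-type replicate 2). Sf3a3, a subunit of the SF3A complex of the U2 particle, measured 278 and 272 in wild type against 468 and 439 in PEPCK-TAg. Its change was 0.70 ± 0.16 (SE; limma, Benjamini-Hochberg adjusted p = 0.0428), and the call was lost without each of the 4 arrays (0.0981 to 0.178). Its partner Sf3a1 measured 119 and 157 in wild type against 163 and 175 in PEPCK-TAg (log2 change 0.27 ± 0.20), with groups narrowly apart.

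The third SF3A gene, Sf3a2, had the lowest change of any member in 1 probe set and none in the other. Probe set 92197_r_at measured 825 and 778 in wild type against 159 and 490 in PEPCK-TAg, with the PEPCK-TAg arrays far from each other (-1.47 ± 0.45; limma, Benjamini-Hochberg adjusted p = 0.0980). Without PEPCK-TAg replicate 2 it was called lower (-2.24, limma Benjamini-Hochberg adjusted p = 0.000681), and without PEPCK-TAg replicate 1 its change was -0.69. Probe set 92196_f_at measured 966 and 891 in wild type against 893 and 974 in PEPCK-TAg, with overlapping groups (0.01 ± 0.15).

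Subunits of SF3B, the complex that holds the branch point, had 6 changes of 6 above 0, also with median centring, and 0 calls. Sf3b1, its largest subunit and a frequent site of mutation in blood cancers, measured 68.7 and 73.6 in wild type against 126 and 116 in PEPCK-TAg with 97808_at (0.67 ± 0.21; limma, Benjamini-Hochberg adjusted p = 0.101). With 96777_at it measured 269 and 348 in wild type against 452 and 379 in PEPCK-TAg (log2 change 0.42 ± 0.20; limma, Benjamini-Hochberg adjusted p = 0.235). Groups were apart in both. Sf3b5 (0.30), Sf3b6 (0.29), Sf3b3 (0.20) and Sf3b2 (0.17) followed, with groups apart for Sf3b6 and Sf3b3 and overlapping for Sf3b5 and Sf3b2.

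Among the Rbm genes 0 of 17 measured probe sets rose or fell by limma with Benjamini-Hochberg adjustment, and 6 were higher and 0 lower at an unadjusted p under 0.05, or 35.3% and 0% beside a background of 15.5% and 11.0%. Changes were above 0 for 16 (11 with median centring), with a median of 0.38. Groups were apart with PEPCK-TAg higher in 8 and lower in 1, or 47.1% and 5.88% beside 30.2% and 26.3% of all tested. The smallest p was that of Rbmxl1, a gene closely similar to Rbmx, which encodes hnRNP G. It measured 146 and 153 in wild type against 248 and 238 in PEPCK-TAg (log2 change 0.66 ± 0.17; limma, Benjamini-Hochberg adjusted p = 0.0607). Rbmx itself measured 44.8 and 48.3 in wild type against 94.6 and 80.0 in PEPCK-TAg with 97848_at (0.75 ± 0.25; limma, Benjamini-Hochberg adjusted p = 0.121). With 97847_at, where wild-type replicate 1 at 123.3 lay just under PEPCK-TAg replicate 1 at 124.3, the change was 0.54 ± 0.34.

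Rbm8a, a core protein of the exon junction complex left on spliced messengers, measured 208 and 299.8 in wild type against 459 and 405 in PEPCK-TAg (log2 change 0.76 ± 0.21; limma, Benjamini-Hochberg adjusted p = 0.0786). Rbm14, a coactivator that binds RNA, measured 111.5 and 171 in wild type against 226 and 249.9 in PEPCK-TAg with 100138_f_at (0.73 ± 0.23; limma, Benjamini-Hochberg adjusted p = 0.107). Both were called when wild-type replicate 2, the higher wild-type array in each, was left out (limma, Benjamini-Hochberg adjusted p 0.0439 and 0.0472). Rbm25 and Rbm39, which act with the U1 and U2 particles, had groups apart, with a change of 0.59 for Rbm25 and of 0.77 and 0.38 for the probe sets of Rbm39.

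The Rbm genes are described further by role, in a grouping made after the values were seen, which therefore supports no difference between the roles. Of the spliceosome and the exon junction, Rbm8a, Rbm17, Rbm25, Rbm39, Rbm42, Rbmx and Rbmxl1 had 9 measured probe sets with a median of 0.59. Groups were apart with PEPCK-TAg higher in 7 of these, or 77.8% beside 30.2% of all tested. The remaining Rbm genes, among them Rbm38, Rbms1 and Rbms2, had 8 measured probe sets with a median of 0.09. Of these, groups were apart upward in 1, or 12.5%. That 1 was Rbm14. Rbm42 measured 206 and 337 in wild type against 266 and 262 in PEPCK-TAg and Rbm18 250.5 and 182 and then 209 and 219.5, so for these genes the spread between wild-type arrays exceeded any shift. Rbms2 (-0.15) had both PEPCK-TAg arrays just under wild type. Below the filter were 1 probe set of Rbm14, Rbm22, at or under 2.3 on every array, and Rbm6, with 64.3 and 44.9 in wild type against 27.8 and 39.1 in PEPCK-TAg.

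Where a gene had more than 1 measured probe set, the direction was mostly shared. Of 13 such genes 11 had changes of the same sign in all their probe sets, and the exceptions were Sf3a2 and Snrpb2. In each of those 2 genes the lower value came from a probe set with the suffix _r, which marks probes picked under relaxed design rules. The higher value came in each from a probe set with the suffix _f, open to sequence shared with related transcripts. Which of the probe sets reads its gene better was not tested. The gap between probe sets was 1.48 for Sf3a2 and 1.49 for Snrpb2, and at most 0.44 (Rbms1) in the other 11. Counting 1 probe set per gene, that with the highest mean, 4 of 55 measured genes rose, or 7.27% beside 6.40% of all tested probe sets. Of these 55 changes 51 were above 0, and the median was 0.34. Leaving out the probe sets whose suffix marks shared sequence or relaxed rules, 3 of 54 rose, or 5.56%, and these were of Srsf3, Srsf6 and Sf3a3.

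**Figure D4:**
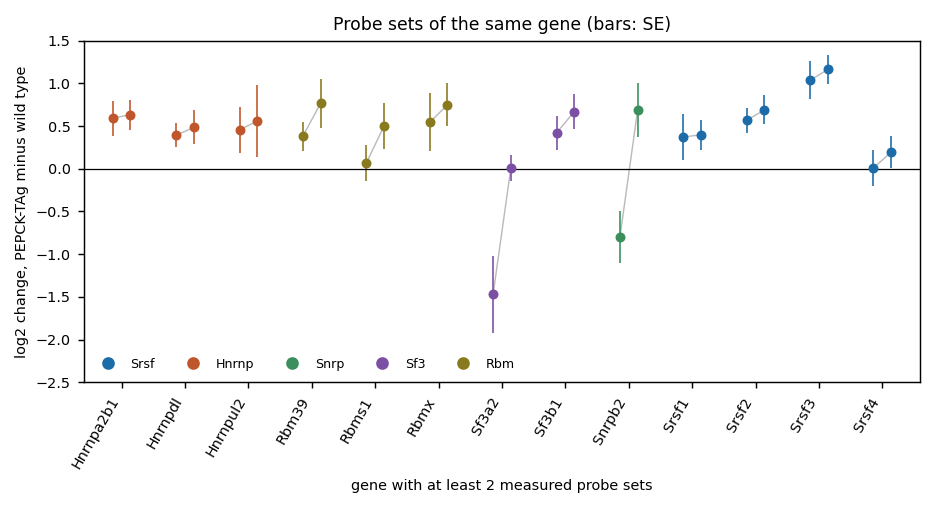
Fitted log2 change, PEPCK-TAg minus wild type (vertical axis), of the measured probe sets of the 13 member genes that have at least 2, joined by a line for each gene, with SE as bars and colour by prefix. Pairs lie close together and above 0 for 11 genes, and Sf3a2 and Snrpb2 have 1 probe set far below the other.

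Members also differed between the arrays of a group. PEPCK-TAg replicate 1 was above replicate 2 for 50 of 68 measured members, with a median log2 difference of 0.11, against 0.00 over all tested probe sets. Wild-type replicate 1 was above replicate 2 for 38 of 68, with a median difference of 0.09, against 0.02 over all tested. The typical gap within a group, without its sign, was 0.23 in wild type and 0.15 in PEPCK-TAg for members, beside 0.23 and 0.19 for all tested.

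Splicing genes outside the 5 name groups were taken from a list of 153 genes. The array holds 104 of them, and 87 were measured, each by the probe set of highest mean signal. Of the 87, 15 rose, 1 fell and 71 did not pass, with 63 changes above 0 (56 with median centring) and a median of 0.27. With the deposited scaling 6.40% of all tested probe sets rose, 3.07% fell and 50.5% were above 0. The largest rise was that of Lsm3, which encodes a subunit of the Sm-like ring on U6 RNA, from 79.4 ± 2.47 to 241 ± 15.7 (SD, n = 2), a log2 change of 1.46. Lsm8 (1.27) and Lsm4 (1.11) of the same ring rose too, and Lsm7 did not pass (0.20, limma Benjamini-Hochberg adjusted p = 0.572). Lsm2 was below the filter and not tested, with 18.6 and 24.1 in wild type against 82 and 106.3 in PEPCK-TAg. Alyref, an adaptor for messenger export that joins transcripts during splicing, rose from 158 ± 16.1 to 419 ± 63.9, by 1.33. Further rises were those of Acin1 (1.25), Crnkl1 (1.20), Snrnp40 (1.20), Tra2b (1.06), Rnps1 (1.05), Prpf38a (0.99), Snrnp25 (0.97) and Ddx39b (0.77) on the log2 scale. Tra2b, an SR-like activator of exons, rose from 520 ± 62.6 to 1095 ± 48.7. Prpf19, Matr3 and Ewsr1 completed the rises, and Prpf6, a protein of the tri-snRNP singled out after its values were seen as the only fall, fell by 0.66 on the log2 scale, from 662 ± 19.4 to 415 ± 11.95.

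By function, read against the same background of 6.40% higher and 3.07% lower, 8 of 35 measured spliceosome subunits and assembly factors rose and 1 fell, with a median of 0.20. Of 15 kinases of SR proteins and SR-related genes 3 rose, and of 24 other hnRNP-like and regulatory RNA-binding proteins 2 rose, with medians of 0.24 and 0.38. Of 7 splicing helicases 1 rose, with a median of -0.06, and of 6 exon junction and export genes 1 rose, with a median of 0.46. No gene of these last 4 groups fell. Of the 16 calls, those of Lsm3, Alyref and Tra2b held when any 1 array was left out (limma, Benjamini-Hochberg adjusted p at most 0.0255, 0.0323 and 0.0474), and each of the other 13 was lost in at least 1 such fit.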

How the data were processed

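The authors deposited 1 MAS5 signal intensity per probe set and array on a linear scale, per the submitters' processing notes, which give no software version, scaling target or detection call. Per the file headers, the arrays shared chip lot, fluidics station and scan day, and each had its own fluidics module, so none of these recorded fields splits the groups. Batches of RNA preparation or labelling are not known. The deposited scaling was kept. To each signal 13 was added before taking log2, which is 5% of the trimmed mean (lowest and highest 2% removed). Of 12422 non-control probe sets, the 7453 with a mean at or above the 40th percentile (a signal near 48.1) were fitted with limma 3.58.1 in R 4.3.3 (lmFit, eBayes with a trend, 2 residual and 4.61 prior degrees of freedom, two-sided), with Benjamini-Hochberg adjustment over all of them and a threshold of 0.05. A log2 change on this scale understates that of dim genes, and 2 arrays a group limit the precision of every value. The smallest p an exact permutation of 2 against 2 arrays allows is 0.333, so none was run.

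Groups and replicate numbers came from the sample titles. Symbols came from the platform annotation (10833 probe sets with 1 symbol, 396 with several and unnamed here, 1193 with none). Promoter sequences are from RefSeq (GRCm38.p6), matched by gene identifier for 50 of 57 member genes, taking the first listed start for those printed. Members and gene lists were chosen with earlier results of these data known. Named in full were members past the threshold, up to 4 of smallest p in each prefix group, and Srsf1, Srsf2, Srsf3, Hnrnpa1, Hnrnpa2b1, Snrpn, Sf3b1 and Rbm3 where measured, and of the other splicing genes past the threshold the 12 with the largest change. Snrpn and Rbm3 were not analysed here, and protein sequences were not used here. Alternatives were other normalizations, offsets and filters, no variance trend, a replicate block, other choices of probe sets and leaving out each array. The procedure was tested on simulated arrays of the PEPCK-TAg and wild-type comparison with 7453 probe sets. There it recovered 55% of 100 changes of 1 and 97% of 100 changes of 2 on the log2 scale, with 15 false calls. The simulated noise depended on mean signal alone, so probe sets of like signal had like variance. These rates may therefore not hold for the real arrays.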

Additional observations from a re-analysis of the deposited data

How the results depend on the processing

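None of the 24 member probe sets refitted under every alternative (the calls, those of smallest p and the always-named genes) reversed its direction where it could be fitted. Of the other 44 measured members, 20 changed sign between fits that each left out 1 array. Snrpe and the Srsf3 probe set 101004_f_at kept their calls in each fit (limma, Benjamini-Hochberg adjusted p 0.00433 to 0.0310 and 0.00518 to 0.0381). The count of higher members was 3 with quantile normalization, 2 with median centring, 2 with no filter, 3 with no trend and 3 without probe sets of shared sequence, where Snrp had 0 higher. Higher Sf3 probe sets numbered 0 with quantile normalization, median centring, cyclic loess, no filter and no trend, and higher Srsf probe sets 1 with median centring, 5 with cyclic loess and 1 with no filter. Cyclic loess gave 1 higher Hnrnp probe set, and median centring a member median of 0.24. Over all probe sets, lower calls were 409 with median centring, 105 with no filter and 117 with no trend. Leaving out each array in turn gave 2 to 4 higher and 0 to 1 lower members, a member median of 0.30 to 0.50, 288 to 420 higher and 110 to 143 lower probe sets in all, 1 higher Srsf, 0 to 1 higher Hnrnp, 0 higher and 0 to 1 lower Sf3, and 0 to 2 higher Rbm probe sets. The cause of these shifts was not tested. Fits without 1 array take the lone array of a group to vary like the others.

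The labels give replicate numbers 1 and 2 in both groups without saying what they share, and deviations of same-numbered arrays correlated with r = 0.18 across probe sets. With the replicate block, 12 members were higher and 1 lower, with 5 higher Srsf, 3 higher Hnrnp, 2 higher Snrp and 1 higher Rbm probe sets and 1 lower Sf3 probe set, and 696 were higher and 444 lower over all probe sets, on 1 residual degree of freedom. The added calls included those of Srsf2, Hnrnpm, Hnrnph1, Hnrnpa2b1, Snrpd3 and Rbm14.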
